A study of Mus musculus with 11 samples.

Results

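The genes described here are 37 named genes of mouse chromosome 11 that lie around *Ern1*, the gene for the endoplasmic reticulum stress sensor IRE1, out of 24421 genes counted in tumor cDC1s, the conventional type 1 dendritic cells of B16 melanoma tumors. All lie in a stretch of 5 Mb, and they were chosen by position together with the measured difference between pools whose mice carried a floxed *Ern1* and pools whose mice did not. The members' values in that comparison are therefore a description, with no p, and nothing is read from their calls in it. Of the 37 members, 32 passed the filter of more than 1 CPM (reads of a gene per 1000000 reads) in at least 4 pools and 5 did not (*Mapt*, *Mrc2*, *Ace*, *Kcnh6* and *Prkca*). The filter kept 10951 genes in all, 48 of them in the stretch, of which 16 are not members.

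Bulk RNA-seq covered 11 pools of sorted tumor cDC1s, each from 2 to 4 mice of 6 to 14 weeks. All mice carried floxed *Xbp1*, whose exon 2 lies between the loxP sites, also on chromosome 11. There were 3 control pools from XBP1 fl/fl mice without Cre, and 4 XBP1ΔDC pools from XBP1 fl/fl mice with CD11c-CRE. Floxed *Ern1* was carried by 1 floxed control pool (XBP1 fl/fl IRE1 fl/fl, without Cre, replicate 4) and by 3 XBP1ΔDCIRE1truncDC pools (the same alleles with CD11c-CRE). Cre excises exons 20 and 21 of *Ern1* and leaves a truncated IRE1 without its RNase domain, so the floxed control still had an intact IRE1 and an intact XBP1. The CD11c-CRE transgene is driven by the *Itgax* promoter, which is active in dendritic cells and some other myeloid cells. The study's reagent list names the floxed *Ern1* line as a mixed stock, B6;129S4, while its methods give the background of all mice as C57BL/6. The flanking DNA of the mice was not analysed here. Labels do not say whether pools came from separate experiments, and the floxed genotype without Cre rests on a single pool.

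Genes that sit close together on a chromosome are inherited together, so mice chosen for a floxed allele also receive the DNA beside it, and a gene near the allele can differ between lines without being a target of the deleted gene. IRE1 itself splices *Xbp1* mRNA and cleaves other mRNAs, a process called RIDD, and those mRNAs come from genes on many chromosomes. The floxed control pool carries the allele with IRE1 intact, whereas in the XBP1ΔDCIRE1truncDC pools Cre has acted on it.

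Of the 32 members tested, 3 separated the pools by floxed *Ern1*. *Arf2*, *Cyb561* and *Nsf* were lower in all 4 pools with floxed *Ern1* than in any of the 7 others, also in the floxed control, and no member was higher in that way. Over all 10951 genes, 0.356% were lower without overlap and 0.265% were higher without overlap. The other 29 members overlapped between the 4 and the 7 pools, so the name of the set describes where the genes lie rather than a shared difference.

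*Nsf* and *Arf2* are neighbours that are read away from each other, with start sites 12.7 kb apart (GENCODE vM21, GRCm38). *Nsf* lies on the minus strand at chr11:103821782-103954056 and *Arf2* on the plus strand at chr11:103966739-103985337. Their upstream DNA is shown because these are the adjacent members that were both lower in the floxed pools. RefSeq's table for GRCm38.p6 held promoter entries for 29 of the 37 members, and *Cyb561* was among those without one. Each line gives the 250 bases before the first annotated start, 5′ to 3′ on the gene's own strand, at chr11:103966475-103966724 for *Arf2* (plus strand) and chr11:103954057-103954306 for *Nsf* (minus strand). Capitals mark the letters CCAAT (the CCAAT box) and GGGCGG (the GC box) on either strand, and TATAAA (the TATA box) was searched in the same way.

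Arf2: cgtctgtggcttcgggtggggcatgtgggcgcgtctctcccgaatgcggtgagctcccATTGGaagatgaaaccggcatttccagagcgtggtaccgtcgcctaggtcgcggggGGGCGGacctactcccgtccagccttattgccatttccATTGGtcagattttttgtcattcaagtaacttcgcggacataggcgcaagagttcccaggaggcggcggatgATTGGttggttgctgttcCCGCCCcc
Nsf: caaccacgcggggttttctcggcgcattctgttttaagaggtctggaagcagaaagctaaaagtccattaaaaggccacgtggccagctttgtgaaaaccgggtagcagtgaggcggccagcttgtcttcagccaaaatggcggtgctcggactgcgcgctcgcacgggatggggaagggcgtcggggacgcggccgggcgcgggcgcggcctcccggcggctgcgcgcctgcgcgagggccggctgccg

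The *Arf2* window held 3 CCAAT and 2 GGGCGG matches, and the *Nsf* window held none of the 3 motifs. Among 32851 promoter windows of the same length, 33.8% held CCAAT, 32.7% held GGGCGG and 12.4% held TATAAA. The GC content was 59.2% for *Arf2* and 66.0% for *Nsf*, against a median of 52.4%. These letters are those of the reference mouse, and the bases of the pools themselves were not analysed here.

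*Arf2* encodes a small GTPase of the ADP-ribosylation factor family, which recruits coat proteins to Golgi membranes. Control replicates 1 to 3 held 371, 228 and 257 CPM of it, and XBP1ΔDC replicates 1 to 4 held 357, 271, 210 and 249 CPM. In the floxed control it was at 35.8 CPM, and in XBP1ΔDCIRE1truncDC replicates 1 to 3 at 45.0, 51.4 and 39.7 CPM. The 4 floxed pools lay between 35.8 and 51.4 CPM, all below the 7 others, whose lowest value was 210 CPM.

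The mean of *Arf2* was 43.0 ± 6.74 CPM (SD, n = 4) with floxed *Ern1* and 278 ± 62.3 CPM (SD, n = 7) without. The floxed level was 15.5% of the other, a 6.46-fold lower mean. In a model with Cre as a covariate the log2 difference was -2.70 (standard error 0.185). These values rest on 803 to 1152 reads per floxed pool, so counting error is small beside the spread between pools.

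*Cyb561* encodes cytochrome b561, a membrane protein that passes electrons from ascorbate into secretory vesicles. Controls held it at 7.54, 8.74 and 12.5 CPM and XBP1ΔDC pools at 6.75, 4.98, 8.31 and 8.62 CPM. The floxed control was at 0.937 CPM and the XBP1ΔDCIRE1truncDC pools at 1.09, 1.26 and 1.26 CPM. The floxed pools again sat together below the rest, with 21 to 29 reads each.

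For *Cyb561* the means were 1.14 ± 0.154 CPM (SD, n = 4) and 8.21 ± 2.31 CPM (SD, n = 7), and the log2 difference was -2.78 (standard error 0.273). *Cyb561* lies on the minus strand at chr11:105933702-105953336, 1.99 Mb from *Arf2* on the side of *Ern1*, and its start site is 0.535 Mb from that of *Ern1*. Of its exonic bases 10.3% also belong to a gene on the opposite strand, *Gm9910*, and the counting strand is not given in the sources used here. Its 3′ neighbour *Tanc2* ends 4.40 kb away and is described below.

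*Nsf* encodes the ATPase that takes SNARE complexes apart after membranes fuse. Its level was 127, 116 and 133 CPM in controls and 118, 131, 134 and 131 CPM in XBP1ΔDC pools. The floxed control was at 93.7 CPM, and the XBP1ΔDCIRE1truncDC pools were at 91.8, 93.8 and 75.7 CPM. All 4 floxed pools were below the lowest of the others, 116 CPM, but the gap was narrow beside that of *Arf2*.

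The means of *Nsf* were 88.8 ± 8.75 CPM (SD, n = 4) and 127 ± 7.23 CPM (SD, n = 7), so the floxed level was 69.8% of the other. Its log2 difference was -0.52 (standard error 0.0786), which is short of the 1.5-fold limit.

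**Figure D1:**
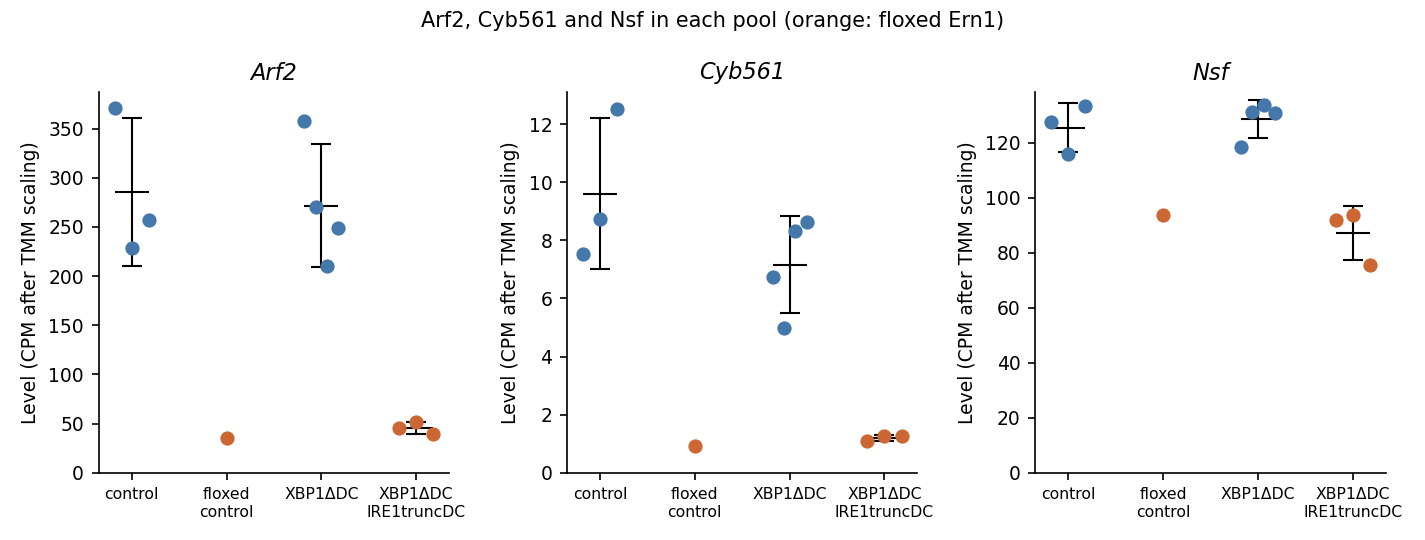
Level of *Arf2*, *Cyb561* and *Nsf* in each of the 11 pools (vertical axes, CPM after TMM scaling, from 0), by genotype; points are pools, blue without and orange with floxed Ern1, and bars are the mean and SD of groups with several pools. The floxed control pool sits with the 3 XBP1ΔDCIRE1truncDC pools in each panel, at 35.8 CPM for *Arf2* against 210 CPM or more in the pools without floxed Ern1.

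Per kilobase of exon, *Arf2* ranked 1st of the 32 members in the 7 pools without floxed *Ern1*, at 92.6 CPM per kb, ahead of *Ddx5* at 56.6 CPM per kb. In the 4 floxed pools it ranked 8th, at 14.3 CPM per kb. *Cyb561* was a low member in all pools, at 2.25 CPM per kb without and 0.311 CPM per kb with floxed *Ern1*. The other ADP-ribosylation factor genes *Arf1*, *Arf3*, *Arf4*, *Arf5* and *Arf6*, added after their values were seen, had log2 differences between -0.05 (*Arf5*, standard error 0.0735) and 0.04 (*Arf1*, standard error 0.0554). Of the summed CPM of these 6 genes, *Arf2* made up 11.8% without and 2.04% with floxed *Ern1*. The family members are similar in sequence, and how reads that match several of them were counted is not given in the sources used here.

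The edgeR fit over all genes called 3 genes between the floxed and the other pools (0.0274% of those tested). A call needs a change of more than 1.5-fold with a Benjamini-Hochberg adjusted p below 0.05. They were *Arf2* and *Cyb561*, whose calls restate the choice of the list, and *Lsm12*, which is no member and lies outside the stretch at chr11:102162497-102185296. *Lsm12*, an RNA-binding protein of the LSM family, is named because it was called, after its values were seen. It was higher in the 4 floxed pools, at 71.3 to 82.9 CPM against 45.3 to 60.4 CPM, with a log2 difference of 0.62 (standard error 0.0889, adjusted p = 0.0405 from edgeR's quasi-likelihood test).

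Across the 32 members tested, 21 were lower and 11 higher in the floxed pools, with a median log2 difference of -0.06 against 0.00 over all genes tested. The sign turned in 10 of the 32 under at least 1 alternative. The median size of the difference was 0.16 in members and 0.09 over all genes. Past 1.5-fold were 4 members, all lower, beside 3.5% of all genes tested. Apart from *Arf2* and *Cyb561* these were *Tanc2* and *Cd79b*, both with few reads and with pools that overlapped. Of the 18 members with a mean of 20 CPM or more, the 16 other than *Arf2* and *Nsf* differed by -0.17 to 0.23 on the log2 scale, with standard errors of 0.0586 to 0.146.

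**Figure D2:**
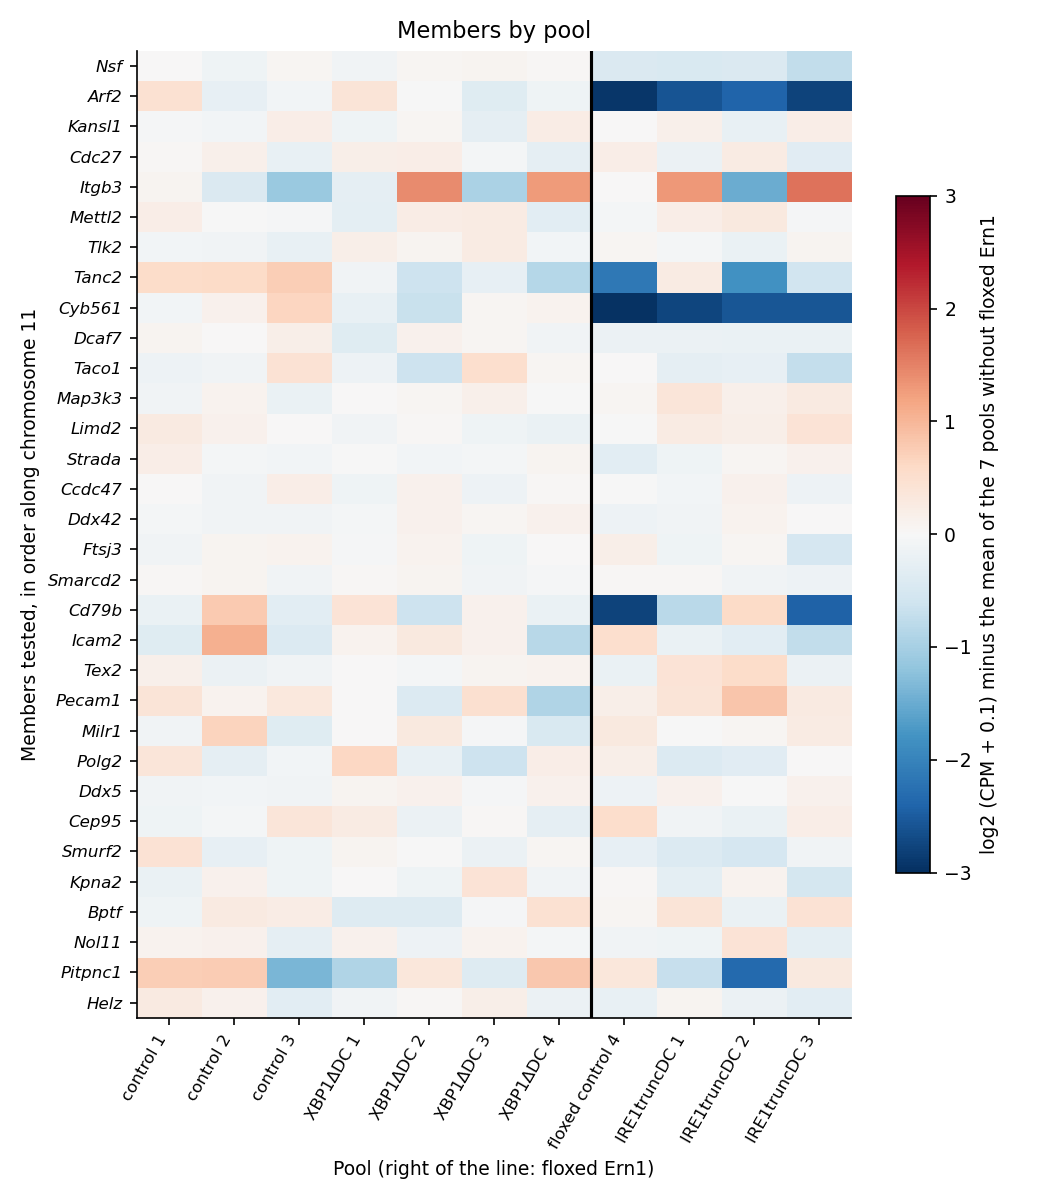
Level of the 32 members tested (rows, in order along chromosome 11) in each pool (columns, with the 4 floxed pools right of the line), as log2 (CPM + 0.1) minus the mean of the 7 pools without floxed Ern1. *Arf2* and *Cyb561* are dark blue in all 4 floxed pools, while the scattered colors of *Itgb3*, *Cd79b*, *Tanc2* and *Pitpnc1* follow single pools.

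The 4 members of vesicle traffic and lipid transfer include the neighbours *Nsf* and *Arf2*, described above. The others are *Tex2*, a lipid transfer protein of the endoplasmic reticulum, and *Pitpnc1*, a phosphatidylinositol transfer protein. *Tex2* differed by 0.13 (standard error 0.144) and *Pitpnc1* by -0.46 (standard error 0.557). *Pitpnc1* ranged from 0.419 to 3.21 CPM in the floxed pools and from 0.912 to 4.46 CPM in the others, so its pools overlapped widely.

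The 7 members of chromatin, transcription and RNA control had differences between -0.16 and 0.18. *Ddx5*, an RNA helicase and one of the most abundant members, was at 294 to 357 CPM in floxed and 301 to 359 CPM in other pools (log2 difference -0.01, standard error 0.0586). *Smarcd2*, a subunit of the SWI/SNF remodelling complex, was at 179 to 204 CPM and 185 to 211 CPM (-0.04, standard error 0.0663). *Kansl1*, a scaffold of a histone acetyltransferase complex, lies next to *Arf2* among the members tested and differed by 0.04 (standard error 0.113).

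The remodelling factor gene *Bptf* differed by 0.18 (standard error 0.198), the RNA helicase genes *Ddx42* and *Helz* by -0.06 (standard error 0.0664) and -0.16 (standard error 0.127), and the tRNA methyltransferase gene *Mettl2* by 0.09 (standard error 0.147). Both ribosome biogenesis members were close to 0, with *Ftsj3* at -0.06 and *Nol11* at -0.02. None of these 9 genes separated the floxed from the other pools.

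The 4 members of cell division and nuclear import differed by -0.16 to 0.15. *Cdc27*, a subunit of the anaphase-promoting complex, differed by 0.00 (standard error 0.139) and the chromatin assembly kinase gene *Tlk2* by -0.05 (standard error 0.108). *Kpna2*, an importin that rises in dividing cells, was at 34.9 to 54.3 CPM in floxed and 43.6 to 67.1 CPM in other pools. Summed proliferation genes spanned 487 to 784 CPM and 485 to 840 CPM in the same pools, and their part in *Kpna2* was not tested.

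Signalling members were *Map3k3*, a kinase upstream of the MAP kinases, *Strada*, a pseudokinase that activates LKB1, *Smurf2*, a ubiquitin ligase, and *Dcaf7*, an adaptor of ubiquitin ligases. *Map3k3* was at 115 to 143 CPM in floxed and 96.4 to 124 CPM in other pools (log2 difference 0.18, standard error 0.0753). *Smurf2* was at 12.9 to 16.9 CPM and 15.3 to 24.8 CPM (-0.31, standard error 0.147), and *Dcaf7* at 206 to 208 CPM and 181 to 266 CPM (-0.17, standard error 0.0895). The pools of each overlapped.

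Mitochondrial and endoplasmic reticulum members other than *Cyb561* were *Taco1*, which aids translation of a cytochrome oxidase subunit, *Polg2*, a subunit of the mitochondrial DNA polymerase, and *Ccdc47*, a membrane protein of the endoplasmic reticulum. *Taco1* differed by -0.30 (standard error 0.247), *Polg2* by -0.16 (standard error 0.283) and *Ccdc47* by -0.02 (standard error 0.0865). *Taco1* shares 17.7% of its exonic bases with *Taco1os*, the largest share among the members.

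*Tanc2*, a scaffold protein best known from synapses, and *Limd2*, a LIM-domain protein, are described with the pools without and with Cre apart. *Tanc2* was at 4.28, 4.33 and 4.85 CPM in controls and 0.580 CPM in the floxed control. With Cre it was at 2.67, 1.83, 2.41 and 1.55 CPM in XBP1ΔDC and at 3.44, 0.745 and 1.91 CPM in XBP1ΔDCIRE1truncDC pools. Its difference of -0.67 (standard error 0.548) became -0.05 without the floxed control and -1.30 without XBP1ΔDCIRE1truncDC replicate 1. That pool also had the highest sum of T cell markers, 10.9 CPM. The 3 controls, with more *Tanc2*, had sums of 1.87, 1.81 and 0.954 CPM. The part of T cells in *Tanc2* was not tested.

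*Limd2* was at 171, 156 and 143 CPM in controls and 142 CPM in the floxed control, below all 3. In XBP1ΔDC pools it was at 133, 145, 130 and 124.7 CPM and in XBP1ΔDCIRE1truncDC pools at 171, 161 and 191 CPM, above all 4. Its difference over all pools was 0.23 (standard error 0.101) and became 0.39 without the floxed control.

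Surface members were low in these cells. *Pecam1* and *Icam2* are adhesion molecules of endothelium and leukocytes, *Milr1* is an inhibitory immunoreceptor, *Itgb3* is the β3 integrin of platelets and other cells, and *Cd79b* is a chain of the B cell receptor. *Pecam1* was at 6.43 to 10.2 CPM in floxed and 2.99 to 7.89 CPM in other pools (log2 difference 0.44, standard error 0.268), and *Milr1* was at 9.07 to 11.2 CPM and 6.64 to 14.6 CPM. *Icam2* was at 1.96 to 4.78 CPM and 1.82 to 7.11 CPM, and *Itgb3* at 0.233 to 2.78 CPM and 0.332 to 2.42 CPM. *Cd79b* had 1 to 30 reads in floxed and 12 to 44 reads in other pools (-1.08, standard error 0.771).

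Markers of the cells that use these surface proteins were measured in the same pools. The 9 endothelial markers summed to 14.6 to 28.4 CPM in floxed and 12.4 to 29.9 CPM in other pools. Over all pools *Cdh5* was at 0 to 2.81 CPM, *Kdr* at 2.64 to 12.8 CPM and *Eng* at 3.87 to 9.6 CPM. The 7 platelet markers summed to 2.19 to 11.2 CPM and 1.74 to 8.996 CPM. Over all pools *Pf4* was at 0.770 to 6.48 CPM and *Gp1bb* at 0. The 6 B cell markers summed to 0 to 0.559 CPM and 0.0370 to 1.99 CPM, with *Ms4a1* reaching 1.99 CPM and *Pax5* at 0 in every pool. In the floxed control and XBP1ΔDCIRE1truncDC replicate 3, where *Cd79b* had 1 and 2 reads, they summed to 0.179 and 0 CPM. Other pools went the other way. Control replicate 2, with the most *Cd79b* reads, 44, had a sum of 0.0370 CPM, and XBP1ΔDC replicate 2, with 12 reads, had 1.92 CPM. The part of these cells in *Pecam1*, *Icam2*, *Itgb3* and *Cd79b* was not tested.

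Of the other lists, the 6 fibroblast markers spanned 2.33 to 12.2 CPM in floxed and 0.593 to 35.2 CPM in other pools, the 6 T cell markers 0.268 to 10.9 CPM and 0.306 to 1.87 CPM, and the 6 melanoma markers 6.30 to 59.1 CPM and 8.22 to 63.3 CPM. The 8 macrophage and monocyte markers spanned 29.99 to 80.1 CPM and 26.4 to 92.7 CPM. *Kit* made up most of the mast cell list (328 CPM on average). *Hdc* was at 0.580 to 6.52 CPM and *Cpa3* at 0 to 0.469 CPM, while *Mcpt4*, *Fcer1a* and *Mrgprb2* were at 0. The 10 cDC1 markers, *Xcr1*, *Clec9a* and *Irf8* among them, summed to 11214 to 13826 CPM and 10357 to 12977 CPM, and all 10 passed the filter.

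The 5 members below the filter are known mainly from other tissues. *Mapt*, the microtubule protein tau, had 10 reads in all 11 pools together, *Kcnh6*, a potassium channel, had 1 and *Ace*, angiotensin-converting enzyme, had 15. *Mrc2*, a collagen receptor of mesenchymal cells, reached 37 reads and *Prkca*, protein kinase C alpha, 18 reads in a pool. A count of 3 reads equals 0.111 to 0.140 CPM in these pools, and a difference in these members was not detectable at this depth.

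The floxed difference is given here without and with Cre apart, in comparisons that use different pools. For *Arf2* the log2 difference was -2.99 (standard error 0.354) for the floxed control against the 3 controls, and -2.58 (standard error 0.211) for the 3 XBP1ΔDCIRE1truncDC pools against the 4 XBP1ΔDC pools. For *Cyb561* these were -3.35 (standard error 0.517) and -2.57 (standard error 0.301), and for *Nsf* -0.42 (standard error 0.147) and -0.56 (standard error 0.0958). These genes were named as lower in all 4 floxed pools, so their sign in both comparisons was fixed by that choice. Only the sizes are described. Over the 32 members, 15 (46.9%) had the same sign in both, and over all genes tested 46.7% did.

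**Figure D3:**
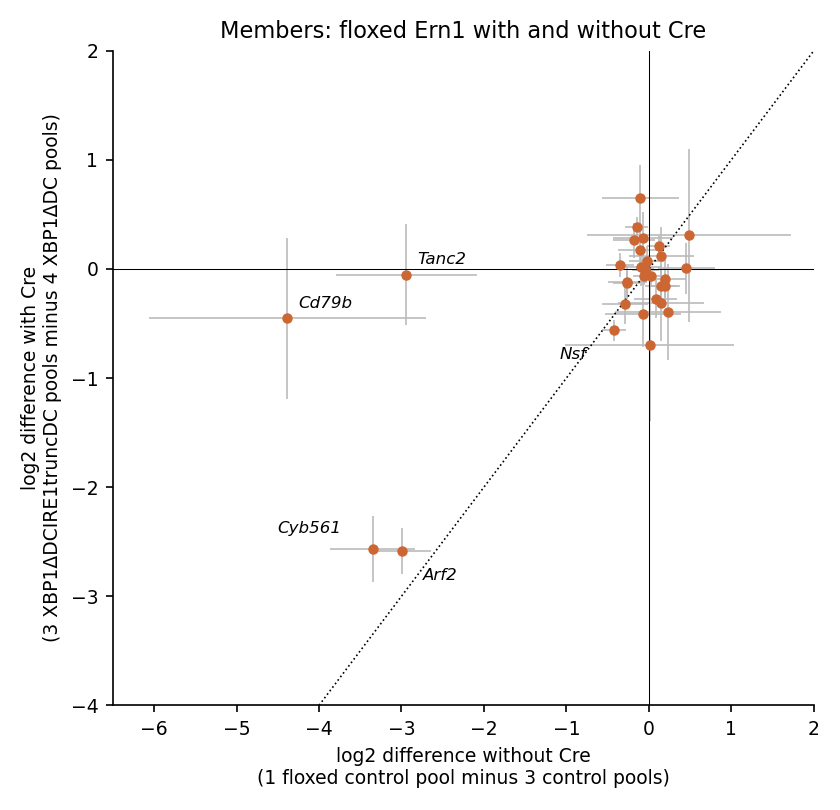
Log2 difference of the 32 members by floxed Ern1 without Cre (horizontal axis, 1 pool against 3) and with Cre (vertical axis, 3 pools against 4), with standard errors as bars and equality as the dotted line. *Arf2* and *Cyb561* lie far below 0 on both axes (-2.99 and -2.58 for *Arf2*), and *Tanc2* and *Cd79b* on the horizontal axis alone. *Nsf* lies below 0 on both axes (-0.42 and -0.56). The other members lie around 0, with *Pecam1* at 0.65 and *Pitpnc1* at -0.70 on the vertical axis.

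The 12 RIDD targets named by the study served as a list outside the stretch, and since the study chose them on these samples their direction is not independent evidence. Their median log2 difference by floxed *Ern1* was -0.03 without Cre (4 higher, 8 lower) and 0.76 with Cre (12 of 12 higher, from 0.33 to 1.78). *Arf2* and *Cyb561*, named as lower in all the floxed pools, were by that choice lower in both comparisons. The cause of either pattern was not tested.

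Whether the floxed difference was unequal with and without Cre does not depend on how the members were chosen and was tested. The median size of this inequality was 0.32 over the members, against 0.21 over all genes. In no member did it pass the threshold with edgeR, limma-voom or DESeq2, while 2 members, *Limd2* and *Tanc2*, had an unadjusted p under 0.05 with edgeR, beside 4.42% of all genes tested. edgeR called 2 genes of 10951 (0.0183%), *Itgb2* and *Slc1a5*, neither a member. For *Arf2* the difference with Cre minus that without was 0.41 (95% interval -0.37 to 1.19, adjusted p = 0.998 from edgeR), for *Cyb561* 0.78 (-0.40 to 1.96) and for *Nsf* -0.14 (-0.51 to 0.24). These intervals leave room for a more than 2-fold unequal effect in *Arf2* and *Cyb561*, because a single pool stands for the floxed control. For *Limd2* it was 0.53 (0.16 to 0.90) and for *Tanc2* 2.89 (0.82 to 4.95), and the adjusted p of each was 0.998 (edgeR).

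The deletion of *Xbp1* was compared within the pools that lack floxed *Ern1*, a comparison that did not enter the choice of members. XBP1ΔDC pools differed from controls in 44 genes (0.402%), and 0 of the 32 members were among them with edgeR, limma-voom or DESeq2. At an unadjusted p under 0.05 were 3 members, *Ddx5* (log2 difference 0.18, 95% interval 0.02 to 0.34), *Limd2* (-0.23, -0.43 to -0.03) and *Tanc2* (-1.08, -2.07 to -0.10), with adjusted p = 0.679, 0.645 and 0.717 from edgeR. Over all genes tested, 6.35% had an unadjusted p under 0.05. *Arf2* differed by -0.07 (-0.49 to 0.35), *Cyb561* by -0.42 (-0.99 to 0.15) and *Nsf* by 0.03 (-0.17 to 0.24). The median size over the members was 0.11, against 0.12 over all genes.

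Within the floxed pools, XBP1ΔDCIRE1truncDC was compared with the floxed control. Only *Serp1*, an endoplasmic reticulum protein that is no member, was called by edgeR (0.00913% of genes tested), with a log2 difference of -0.75 (standard error 0.0917, adjusted p = 0.0372 from edgeR). No member was called by edgeR, limma-voom or DESeq2, and 2 members, *Tanc2* (1.80, 95% interval 0.03 to 3.58) and *Cd79b* (3.71, 0.04 to 7.38), had an unadjusted p under 0.05, with adjusted p = 0.643 for each (edgeR). Over all genes tested, 7.73% had an unadjusted p under 0.05. *Cd79b* had 1 read in the floxed control, so its fitted size depends on the prior count. *Arf2* differed by 0.34 (-0.32 to 1.002), *Cyb561* by 0.36 (-0.67 to 1.38) and *Nsf* by -0.10 (-0.42 to 0.21). The median size over the members was 0.25, against 0.20 over all genes. The lone floxed control pool was assumed to vary like the other groups.

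**Figure D4:**
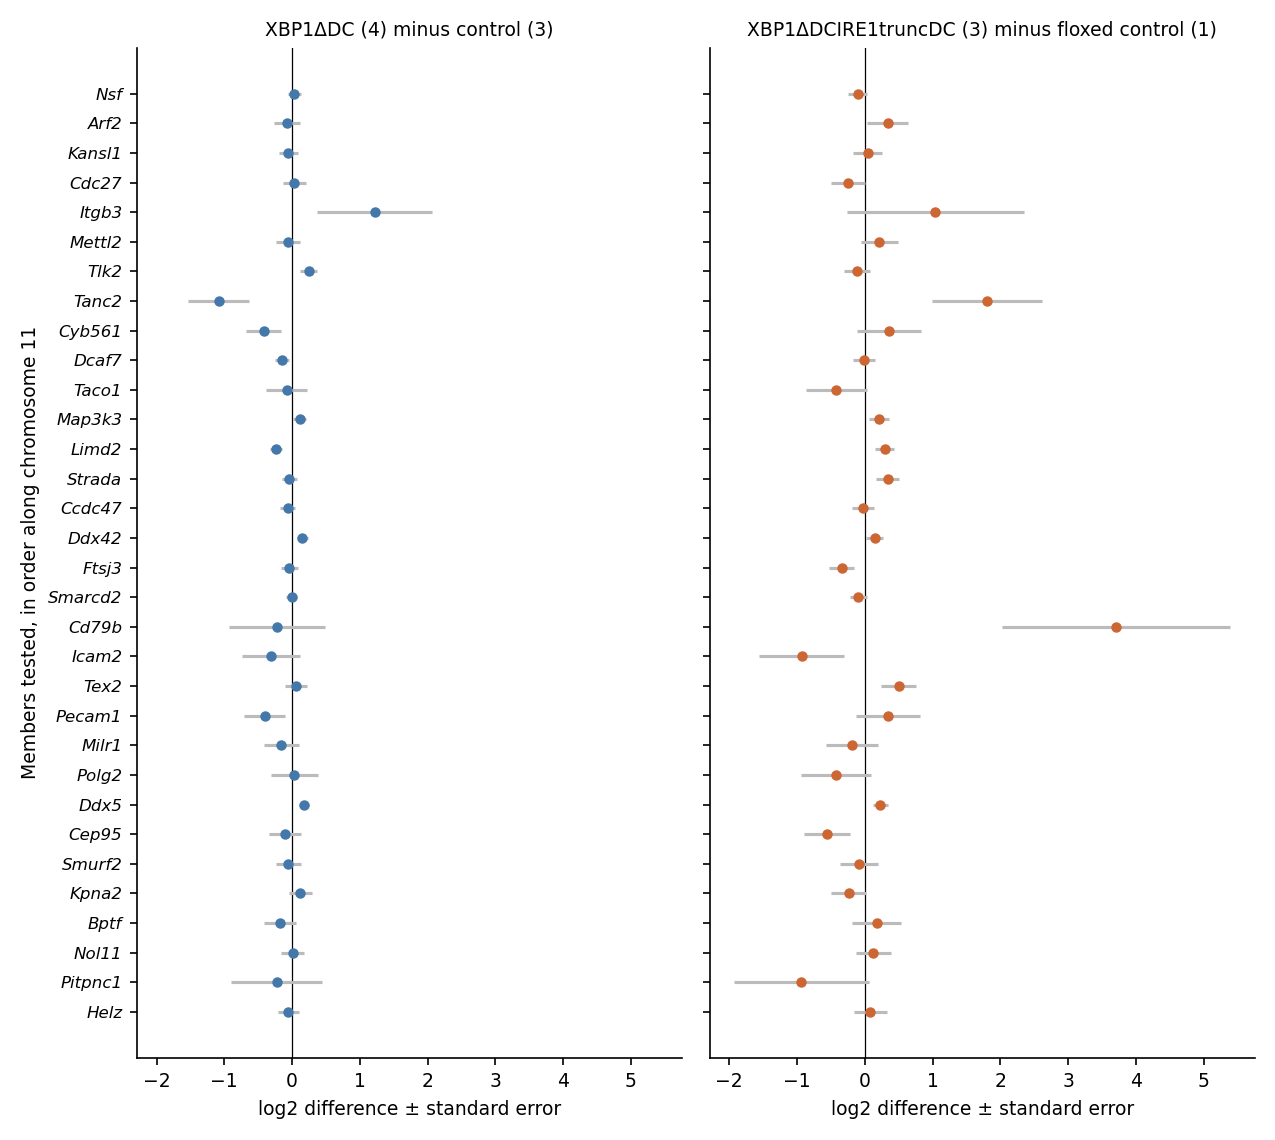
Log2 difference with its standard error for the 32 members (rows, in order along chromosome 11) between XBP1ΔDC and control pools (left) and between XBP1ΔDCIRE1truncDC pools and the floxed control pool (right). *Arf2*, *Cyb561* and *Nsf* lie at -0.07, -0.42 and 0.03 in the left panel and at 0.34, 0.36 and -0.10 in the right panel. The widest bars belong to the low members *Cd79b*, *Itgb3* and *Pitpnc1*.

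The genes targeted in the mice lie on the same chromosome. *Ern1* (chr11:106394650-106487852) was at 9.82 CPM in the floxed control, below the 13.1 to 19.0 CPM of the 3 controls. It was at 9.74 to 15.6 CPM in XBP1ΔDC and at 21.4, 17.0 and 26.0 CPM in XBP1ΔDCIRE1truncDC pools. Over all pools its log2 difference by floxed *Ern1* was 0.42 (standard error 0.253, adjusted p = 0.9996 from edgeR). The difference was -0.65 (standard error 0.329) without Cre, from 1 floxed pool, and 0.79 (standard error 0.206) with Cre. *Xbp1*, 101 Mb away, was at 271 CPM in the floxed control and 244 to 254 CPM in controls. It was at 130 to 165 CPM in XBP1ΔDC and 179 to 236 CPM in XBP1ΔDCIRE1truncDC pools. Counts over whole genes cannot show which exons were present.

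Along chromosome 11 the separated members were not contiguous. Between *Arf2* and *Cyb561* lie 8 members, of which 6 were tested, and the 5 other than *Tanc2* differed by -0.05 to 0.36. Beyond *Cyb561* on the side of *Ern1* and past it, 23 members were tested, and they differed by -1.08 to 0.44. The tested members next to *Ern1* on either side, *Icam2* and *Tex2*, differed by -0.19 (standard error 0.354) and 0.13 (standard error 0.144).

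Among the 16 tested genes of the stretch that are no members, 0 were called by edgeR or limma-voom and 2 by DESeq2 (*C130046K22Rik* and *Acbd4*), with 3 at an unadjusted p under 0.05 in edgeR, beside 3.82% of all genes tested. Past 1.5-fold were *C130046K22Rik*, *Acbd4* and *Arhgap27os3*, named after their values were seen. *C130046K22Rik*, annotated as a processed transcript, lies 99.0 kb from *Nsf* at chr11:103697724-103722832. It had 1, 1, 1 and 7 reads in the floxed pools and 15 to 85 in the others, without overlap (log2 difference -3.97, standard error 0.742, adjusted p = 0.163 from edgeR), and with so few reads the fitted size depends on the prior count. *Acbd4* differed by 1.08 (standard error 0.249) and *Arhgap27os3* by 1.18 (standard error 0.370), both with overlapping pools. At the edges of the stretch, *Nmt1* just inside differed by 0.06 and *Dcakd* just outside by 0.05, while at the far end *Helz*, the last member tested, differed by -0.16 and *Rgs9*, the next gene tested outside, by 1.76 (standard error 0.569).

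The share of genes whose 4 floxed pools did not overlap the 7 others was 6.25% of 16 in the stretch with the members left out, since they were chosen on this difference. That is 1 gene, *C130046K22Rik*, which had few reads. The share was 7.32% of 82 in the 5 Mb below the stretch and 0 of 8 in the 5 Mb above it. It was 0 of 66 in the first 15 Mb of the chromosome, which holds *Xbp1*, 1.53% of 720 in the rest of chromosome 11 and 0.468% of 9616 on other chromosomes. The 6 genes in the 5 Mb below the stretch were *Med1*, *Mien1*, *Dusp3*, *Lsm12*, *Atxn7l3* and *Ubtf*, also named after their values were seen. *Med1*, *Mien1*, *Lsm12* and *Atxn7l3* were higher and *Dusp3* and *Ubtf* lower in the floxed pools, by -0.52 to 0.62 on the log2 scale. Of 21 such genes on the whole chromosome, 3 of them members, 14 were lower and 7 higher. The share past 1.5-fold was 18.8% in the stretch without the members (3 of 16), 7.32% and 25% in the windows below and above it, and 3.23% on other chromosomes.

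**Figure D5:**
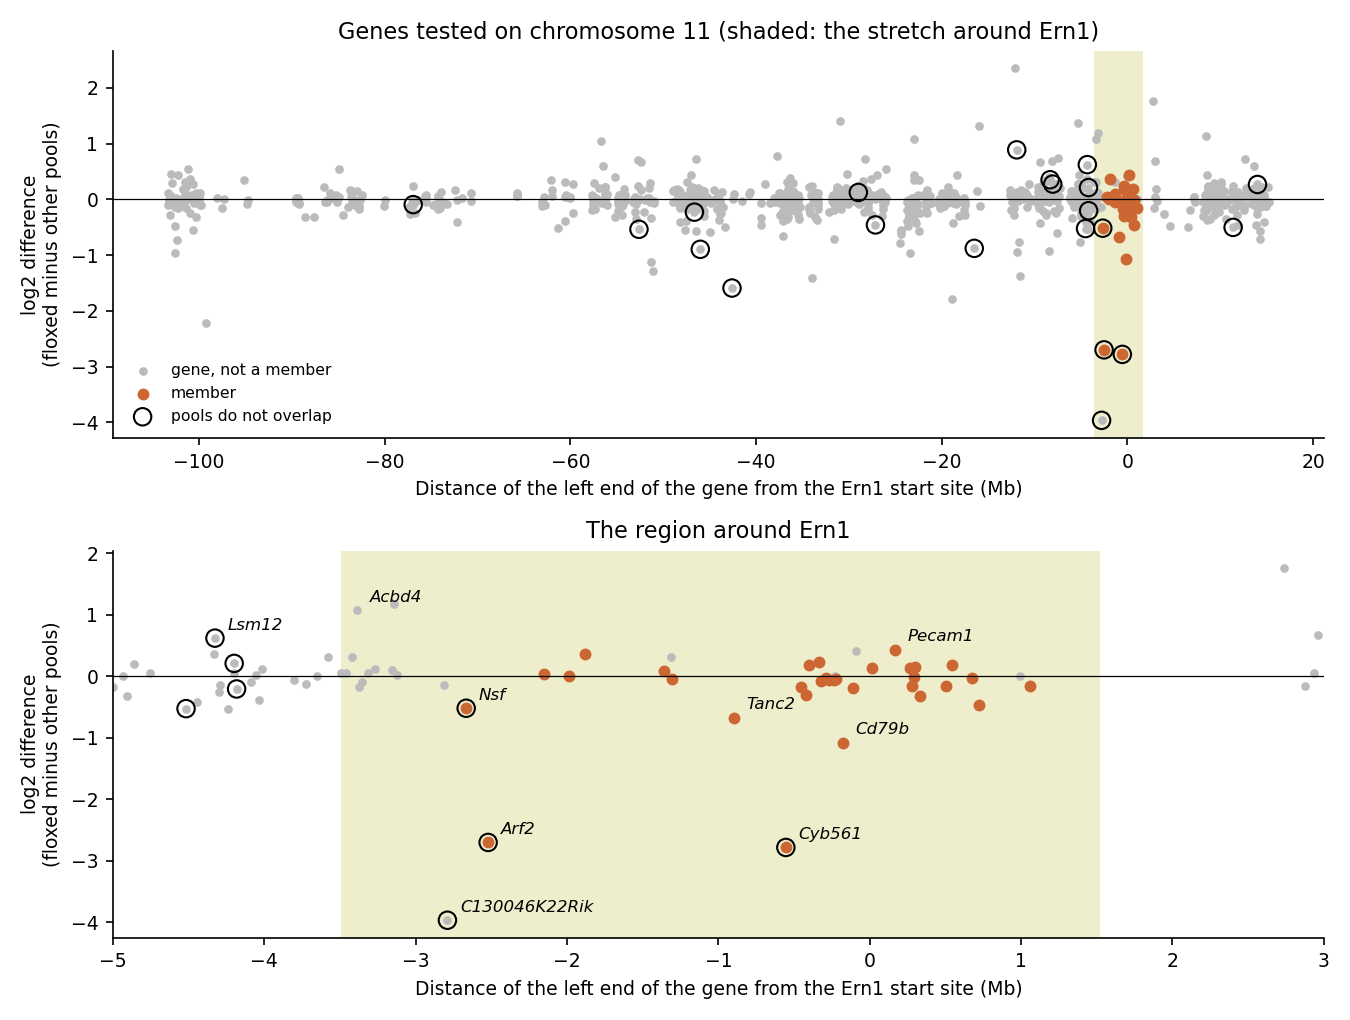
Log2 difference between pools with and without floxed Ern1 (vertical axes) for the genes tested on chromosome 11, by distance of the left end of the gene from the Ern1 start site in Mb (horizontal axes), for the whole chromosome (top) and the region around Ern1 (bottom); orange points are members, and circles mark genes whose 4 floxed and 7 other pools do not overlap. *Arf2* and *Cyb561* stand at -2.70 and -2.78 among members close to 0, and 6 circled genes lie in the 5 Mb below the shaded stretch, 4 of them just beside it.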

How the data were processed

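Tumor cDC1 RNA was amplified by the SMART-seq v4 method, which does not mark strand, and read as single-end libraries. Reads were trimmed by the authors (Trimmomatic 0.39), aligned to mm10 (STAR 2.7.3a) and assigned to genes (HTSeqCount). The authors deposited the resulting counts with no scaling. The annotation and strand setting are not given in the sources used here. A second deposited table of log2 values normalized by the authors was not used here. Totals were 21089065 to 26843486 counts per pool (median 24367818).

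Counts were fitted in R 4.3.3 with edgeR 4.0.16 after TMM scaling (quasi-likelihood test, Benjamini-Hochberg adjustment over 10951 genes), with calls at adjusted p under 0.05 and fold above 1.5. Floxed *Ern1* was fitted with Cre as a covariate, and the other comparisons in a fit of the 4 genotypes. A standard error is the log2 difference divided by the square root of F, and 95% intervals use the t distribution. Log2 differences use edgeR's prior count. Limma 3.58.1 (voom) and DESeq2 1.42.0 were alternatives, beside scaling, filter, covariate, replicate block, windows and leaving out each pool. The fits were tested on simulated data.

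Positions come from GENCODE vM21 (GRCm38), which matched 23334 of 24421 symbols and all members. Figures used python 3.11.15 and matplotlib 3.10.9. The members and lists were chosen with earlier results of these data known. Named were all members, *Ern1*, *Xbp1*, the genes next outside the stretch, called genes of the stretch, RIDD targets and marker genes. P-values measure the spread between these pools, which differed by more than counting error (chi-square per degree of freedom 21.2 to 61.5). In the B cell marker list, 1 gene is not reported here.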

Additional observations from a re-analysis of the deposited data

Results flagged for a closer look

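In 96 groups of pools, 3 for each of the 32 members tested, 2 held a pool far from the rest of its group by Dixon's test, which chance alone does for about 1 group in 20. *Nsf* was at 75.7 CPM in XBP1ΔDCIRE1truncDC replicate 3, below the 91.8 to 93.8 CPM of the other floxed pools, and those 3 pools were also below every pool without floxed *Ern1*. *Icam2* was at 7.11 CPM in control replicate 2, above the 1.82 to 4.07 CPM of the 6 other pools without floxed *Ern1*. The cause was not tested in either case.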

How the results depend on the processing

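Of 600 member values under 19 alternatives, 597 moved by less than the spread within groups, and the 3 that did not are those of *Tanc2* and *Limd2* given above. The log2 difference of *Arf2* spanned -2.79 to -2.58, that of *Cyb561* -2.89 to -2.57 and that of *Nsf* -0.56 to -0.45. The sign of 10 members turned under at least 1 alternative. The members' median spanned -0.099 to -0.0293. No member was called in the comparisons independent of the choice of members under any alternative run. Counts of genes called moved more, and the cause was not tested. By floxed *Ern1* they were 3, with 16 by DESeq2, 8 without the floxed control and 2 to 8 over all pools left out. For XBP1ΔDC against control they were 44, with 72 by DESeq2, 69 with no fold limit and 22 to 48 with a pool left out (22 without control replicate 2, 29 without XBP1ΔDC replicate 4). For XBP1ΔDCIRE1truncDC against the floxed control the count was 1, with 41 by DESeq2, 23 with all Cre-negative pools as control, and 0 in the 4 floxed pools alone or with any 1 pool left out. For the floxed difference with minus without Cre it was 2, with 8 by DESeq2, 0 by library size scaling and 0 to 1 with a pool left out. Pools with the same number did not deviate together (mean correlation -0.0474 over 9 pairs, 1 above 0.1), and a replicate block gave 2, 18, 0 and 0 calls in these comparisons. Of genes past 1.5-fold the stretch held 7, members included, and 3 in its narrower form of 3 Mb. Few reads limit *Cd79b*, *Itgb3* and *Tanc2*.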

Other observations

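DESeq2 called 14 genes by floxed *Ern1* that are no members, and 7 of them lie on chromosome 11, where 8.77% of the genes with a position lie. Beside *Lsm12* these include *Pctp* at 89.98 Mb (log2 difference -0.88), a lipid transfer protein, and *Acsf2* at 94.56 Mb (0.89), an acyl-CoA synthetase, each without overlap between the 4 floxed and the 7 other pools. With edgeR their adjusted p was 0.111 and 0.134. Without Cre, from 1 floxed pool, *Pctp* differed by -1.17 and *Acsf2* by 0.77, and with Cre by -0.76 and 0.94. Others of the 14, *Itgb2*, *Fcrla*, *Slc1a5* and *Fam134c*, differed by -0.10 to 0.13 without Cre and by 0.95 to 2.40 with Cre. The cause was not tested. Of the 20 genes with the smallest p by edgeR, 17 are no members, and 9 of these lie on chromosome 11. *Fam134c*, among both the 14 and the 17, had no matched position and is not counted on any chromosome.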
